A study of Homo sapiens with 36 samples.

Results

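The genes described here are the 10 core members of base excision repair and single-strand break repair that the probe annotation names: the DNA glycosylases UNG, TDG, MBD4, OGG1 and MUTYH, the endonuclease APEX1, the polymerase POLB, the scaffold XRCC1, the ligase LIG3 and the strand-break sensor PARP1. They were chosen by gene symbol, with every probe that carries the symbol, and no measured value entered the rule. Earlier results of these data were known when the list was made. They are 10 of 20046 genes with a probe and hold 19 of 47323 probes. All 10 were among the 12360 genes tested, through 18 probes above background on enough arrays. Total RNA was hybridised to Illumina bead arrays from 3 established human prostate cancer cell lines, DU 145, PC-3 and 22Rv1. Each line was kept in normoxia or in hypoxia at 0.2% oxygen for 24 h, and at either oxygen level received the histone deacetylase inhibitor vorinostat at 1 µM for 24 h or its solvent. There are 12 groups of 3 arrays, 36 arrays in all. The solvent arrays carry solvent in their titles and are called untreated in another label field. Each line is a single cell line, so a comparison of lines speaks of these lines and not of classes of radiosensitivity. DU 145 is labelled radiation resistant, PC-3 and 22Rv1 radiation sensitive; the cells were sampled before any irradiation. The study asked which expression changes go with radiosensitisation by the drug, which its design text reports for DU 145.

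Base excision repair removes damaged or wrong single bases. A glycosylase recognises the base and cuts it off the sugar, an endonuclease opens the strand at the empty site, a polymerase inserts the missing nucleotide and a ligase closes the nick. Single-strand breaks, including those made by ionising radiation and those that arise during base excision, are bound by PARP1, which marks them with poly(ADP-ribose) chains, and these chains recruit the XRCC1 and LIG3 pair that ends the repair. Tumour cells depend on this route after radiation because unrepaired single-strand breaks and base lesions become double-strand breaks during DNA replication.

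The sequences just before the transcription starts of UNG, LIG3 and OGG1 are shown because UNG and LIG3 fell with vorinostat in all 3 lines, and hypoxia lowered LIG3 in 2 lines and OGG1 in 3. They come from RefSeq (GRCh38.p14), which gives UNG at chr12:109097597-109110992, LIG3 at chr17:34980512-35010872 and OGG1 at chr3:9749952-9791070, all on the + strand. Windows of 250 bases before an annotated start were read for 9 of the 10 members, 12 windows in all. POLB was left out, so the counts over member windows do not cover it. UNG has an upstream start, whose transcript encodes the nuclear form of the enzyme, and a downstream start, whose transcript encodes the mitochondrial form. Capitals in the UNG windows mark an E2F-type motif of S phase genes (TTTCCCGC, TTTCGCGC, TTTGCCGC or TTTGGCGC on either strand). Capitals in the LIG3 and OGG1 windows mark ACGTG, the core of the hypoxia response element, on either strand, where the palindrome CACGTG counts on both.
UNG, upstream start, chr12:109097347-109097596, + strand: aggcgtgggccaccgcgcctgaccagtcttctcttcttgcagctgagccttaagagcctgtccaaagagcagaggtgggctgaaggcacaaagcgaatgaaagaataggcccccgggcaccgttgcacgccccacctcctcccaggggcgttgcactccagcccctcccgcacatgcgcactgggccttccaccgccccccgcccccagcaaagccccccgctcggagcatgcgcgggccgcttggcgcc
UNG, downstream start, chr12:109097922-109098171, + strand: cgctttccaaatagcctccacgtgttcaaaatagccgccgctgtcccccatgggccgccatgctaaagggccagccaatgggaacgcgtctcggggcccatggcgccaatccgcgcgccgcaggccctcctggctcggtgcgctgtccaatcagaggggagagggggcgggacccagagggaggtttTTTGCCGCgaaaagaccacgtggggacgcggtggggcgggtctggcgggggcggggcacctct
LIG3, chr17:34980262-34980511, + strand: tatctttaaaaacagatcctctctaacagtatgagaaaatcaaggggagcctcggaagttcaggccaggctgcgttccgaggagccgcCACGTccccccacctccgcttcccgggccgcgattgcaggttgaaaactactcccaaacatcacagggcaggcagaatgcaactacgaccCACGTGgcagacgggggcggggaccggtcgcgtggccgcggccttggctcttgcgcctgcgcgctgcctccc
OGG1, chr3:9749702-9749951, + strand: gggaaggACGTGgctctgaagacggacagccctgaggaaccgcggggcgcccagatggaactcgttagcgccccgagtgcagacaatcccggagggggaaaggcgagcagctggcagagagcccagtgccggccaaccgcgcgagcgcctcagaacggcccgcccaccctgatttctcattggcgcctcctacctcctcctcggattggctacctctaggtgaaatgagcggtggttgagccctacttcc
The E2F-type motif lies in 1 of the 12 windows, that of the downstream UNG start, 63 bases before the start, and in 2.79% of all 35116 promoter windows. The ACGTG core lies in 5 of the 12 windows (LIG3, OGG1, TDG, APEX1 and the downstream UNG start) and in 18.5% of all. MUTYH, which fell in hypoxia in all 3 lines, holds none in its 3 windows. A CCAAT box lies in 8 of the 12 windows against 32.0% of all, and the GC box GGGCGG in 9 against 42.6%. These matches describe letters in a window and were not tested as binding sites.

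In depth the arrays ranged narrowly: 30.1% to 35.7% of probes were above background on an array, and replicate arrays of a group correlated at 0.985 or more across probes. Vorinostat raised CDKN1A, a classic target of histone deacetylase inhibitors, in all 3 lines (log2 difference 1.37, 1.18 and 0.60 in DU 145, PC-3 and 22Rv1, mean of both oxygen levels). In hypoxic 22Rv1 taken by itself the rise of 0.50 was not called. Hypoxia raised NDRG1, a hypoxia-induced gene, by 3.39, 2.36 and 2.74. Of other hypoxia genes checked, ADM rose by 1.69, 2.12 and 4.42. VEGFA rose by 0.67 in PC-3 and 1.80 in 22Rv1 and was not called in DU 145 (0.37). Hypoxia also raised CDKN1A in DU 145 (0.82) and PC-3 (1.08) but not detectably in 22Rv1 (0.26). Vorinostat raised NDRG1 in normoxic DU 145 (0.88) and PC-3 (0.83) and lowered it in hypoxic DU 145 (-1.04). All 5 epithelial markers measured (EPCAM, CDH1, KRT8, KRT18, KRT19) were above background on all 12 arrays of each line, the endothelial genes VWF and CDH5 and the leukocyte genes PTPRC and CD3E on none. Of the androgen-responsive genes, KLK2 was above background in 22Rv1 alone, TMPRSS2 on all 12 arrays of PC-3 and of 22Rv1, and KLK3 on no array. In PC-3 the probes of COL1A1 and PECAM1, fibroblast and endothelial genes, were dim but above background on all 12 arrays, and COL3A1 on 7. CD14 was above background on 6, 9 and 6 of 12 arrays in DU 145, PC-3 and 22Rv1, and COL1A1 also on 5 in DU 145 and 4 in 22Rv1.

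The main probe of each gene, the one with the highest mean, was above background on 36 of 36 arrays for all 10 members. On solvent arrays in normoxia, the lines differed in 6 members (DU 145 against PC-3), 7 members (DU 145 against 22Rv1) and 7 members (PC-3 against 22Rv1) at an adjusted p under 0.05 in limma, all genes adjusted together. Of all 12360 genes, 62.3%, 64.8% and 68.4% were called in these comparisons, so the share of members is close to the background. Upward calls made up 31.3%, 30.4% and 31.9% of all genes and downward calls 31%, 34.4% and 36.4%. The groups did not overlap for 7, 8 and 9 members, against 62.8%, 69.7% and 72.1% of all genes. Each line serves in 2 of these comparisons with the same arrays. In bulk RNA, fewer cells with a transcript and less of it per cell cannot be told apart.

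Among the glycosylases, TDG, which removes thymine mispaired with guanine and takes part in DNA demethylation, was highest in 22Rv1. Its log2 level in normoxia with solvent was 11.33, 11.44 and 11.42 on the 22Rv1 arrays, 10.14, 10.10 and 10.22 on the DU 145 arrays and 9.22, 9.35 and 9.29 on the PC-3 arrays. The 3 lines did not overlap, and the log2 difference of PC-3 to 22Rv1 was -2.11 ± 0.09 (SE), 4.3-fold lower (adjusted p = 8.5e-19). MUTYH, which takes adenine out of pairs with oxidised guanine, followed the same order, with means of 9.20 ± 0.07 (SD, n = 3) in 22Rv1, 7.94 ± 0.10 in DU 145 and 7.32 ± 0.13 in PC-3. UNG, the main uracil glycosylase, stood at 12.10 ± 0.02 in 22Rv1, 11.36 ± 0.09 in DU 145 and 10.85 ± 0.30 in PC-3; its difference between DU 145 and PC-3 (0.51 ± 0.20, adjusted p = 0.0259) lost its call without any 1 of 4 arrays (DU 145 solvent 2 or 3, PC-3 solvent 1 or 2; adjusted p up to 0.154) and under cyclic loess (0.0803), median scaling (0.0705) and a fit of these lines alone (0.062). OGG1 and MBD4, the glycosylases for oxidised guanine and for thymine in methylated CpG contexts, were called in no comparison of lines (adjusted p from 0.0732 to 0.7).

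Downstream of the glycosylases, APEX1 and LIG3 had their highest mean in DU 145, and PARP1, XRCC1 and POLB theirs in 22Rv1. APEX1, the endonuclease that opens the strand at the empty site, was highest in DU 145: 11.87, 12.17 and 12.12 against 11.29, 11.41 and 11.42 in 22Rv1 and 11.19, 11.16 and 11.26 in PC-3. DU 145 lay 0.85 ± 0.09 above PC-3 (adjusted p = 2.1e-09) and 0.68 ± 0.09 above 22Rv1 (adjusted p = 1.3e-07), while the difference of PC-3 to 22Rv1, -0.17 ± 0.09, was not called. LIG3 was also lowest in PC-3 (6.42 ± 0.37, SD), against 7.55 ± 0.11 in DU 145 and 7.26 ± 0.05 in 22Rv1. Its difference of DU 145 to 22Rv1 was not called. PARP1 was highest in 22Rv1 (12.28 ± 0.06) and did not differ detectably between DU 145 and PC-3 (log2 difference -0.07, 95% interval -0.27 to 0.12). XRCC1 and POLB, the gap-filling polymerase that also trims the sugar remnant, were highest in 22Rv1 too, at 7.74 ± 0.17 and 9.87 ± 0.04. Over all 12 groups, the order of means was sharpest for MUTYH, where 4 of 11 neighbouring groups overlapped, and least sharp for MBD4 and POLB, where all 11 overlapped.

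**Figure D1:**
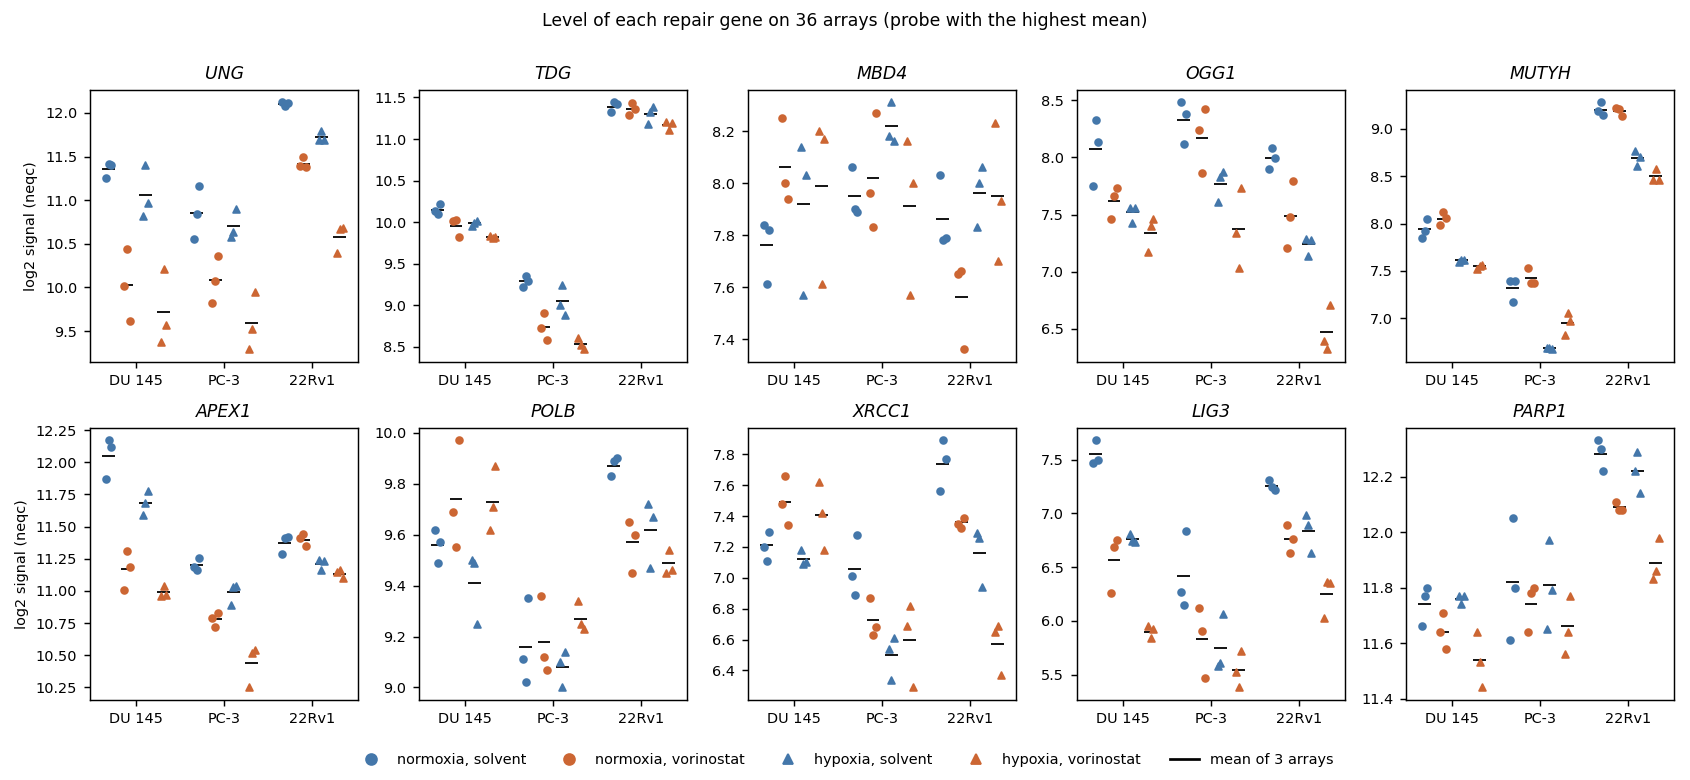
Log2 signal (vertical axis) of the 10 genes on 36 arrays, by cell line (horizontal axis), with 1 point per array and a bar at the mean of 3 arrays. UNG, LIG3 and, outside 22Rv1, APEX1 sit lower with vorinostat; MUTYH sits lower in hypoxia in all 3 lines; each MBD4 group overlaps its neighbour in order of level.

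Vorinostat, averaged over both oxygen levels (6 drug against 6 solvent arrays), changed 8 of 10 members in DU 145 (2 higher, 6 lower), 5 in PC-3 (1 higher, 4 lower) and 6 in 22Rv1 (0 higher, 6 lower). Of all genes tested, 52.6%, 39.5% and 45.3% were called in these lines, and of all genes 27.9%, 19.8% and 22.9% were called higher and 24.7%, 19.7% and 22.4% lower. The median log2 difference of the members was -0.17, -0.20 and -0.24, against 0.01, -0.00 and -0.00 over all genes. UNG and LIG3 fell in all 3 lines (2 of 10 members; 974 of 12360 genes, 7.88%, did). POLB and XRCC1 rose in DU 145 and fell in 22Rv1 (2 of 10 members; 6.97% of all genes were called in opposite directions in some pair of lines). Each called change held on 6 of 6 drug arrays against the solvent mean at their oxygen level, except POLB in DU 145 (5 of 6). MBD4 was called in no line.

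UNG carried the largest fall of any member in each line. In normoxia its log2 level went from 11.26, 11.42 and 11.40 with solvent to 10.02, 10.44 and 9.62 with vorinostat in DU 145, from 10.55, 10.84 and 11.16 to 9.82, 10.07 and 10.36 in PC-3, and from 12.12, 12.08 and 12.11 to 11.39, 11.50 and 11.38 in 22Rv1. In hypoxia it went from 10.82, 11.40 and 10.97 to 9.37, 10.21 and 9.57 in DU 145, from 10.58, 10.64 and 10.90 to 9.29, 9.52 and 9.95 in PC-3, and from 11.69, 11.79 and 11.69 to 10.40, 10.67 and 10.68 in 22Rv1. Drug and solvent arrays did not overlap in any of these 6 pairs of groups. The fall was 1.34 ± 0.14 in DU 145 (2.53-fold, adjusted p = 2.3e-09), 0.94 ± 0.14 in PC-3 (1.92-fold, adjusted p = 2.8e-06) and 0.91 ± 0.14 in 22Rv1 (1.88-fold, adjusted p = 3.1e-06), as differences on the log2 scale with their SE.

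LIG3, the ligase that seals the nick with XRCC1 in the nucleus and is the DNA ligase of mitochondria, fell by 0.92 ± 0.12 in DU 145 (adjusted p = 7.4e-08), by 0.40 ± 0.12 in PC-3 (adjusted p = 0.00669) and by 0.55 ± 0.12 in 22Rv1 (adjusted p = 2.6e-04). In DU 145 the 3 normoxic arrays went from 7.47, 7.68 and 7.50 to 6.26, 6.69 and 6.75 and the hypoxic ones from 6.81, 6.74 and 6.73 to 5.95, 5.84 and 5.92. In PC-3 the arrays spread more widely, from 6.27, 6.15 and 6.84 to 6.12, 5.91 and 5.47 in normoxia, and from 5.58, 5.61 and 6.06 to 5.52, 5.38 and 5.72 in hypoxia, where the groups overlapped. The PC-3 call was lost with the mean of the gene's probes (adjusted p = 0.163) and with the PC-3 arrays fitted alone (adjusted p = 0.0603).

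APEX1 fell in DU 145 and PC-3 but was not called in 22Rv1. Its log2 level in DU 145 went from 11.87, 12.17 and 12.12 to 11.01, 11.31 and 11.19 in normoxia and from 11.59, 11.68 and 11.78 to 10.96, 11.04 and 10.97 in hypoxia, without overlap. The difference was -0.79 ± 0.06 in DU 145 (adjusted p = 1.6e-11), -0.49 ± 0.06 in PC-3 (adjusted p = 4.0e-07) and -0.03 ± 0.06 in 22Rv1 (95% interval -0.16 to 0.11). With the drug, DU 145 no longer had the highest APEX1 mean: in normoxia it stood at 11.17, below 11.40 in 22Rv1.

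TDG fell most in PC-3, by 0.53 ± 0.07 (adjusted p = 1.0e-07), from 9.22, 9.35 and 9.29 to 8.73, 8.91 and 8.58 in normoxia and from 9.01, 9.25 and 8.88 to 8.61, 8.52 and 8.47 in hypoxia. PC-3 is the line with the lowest TDG level to begin with, and the groups did not overlap at either oxygen level. The fall of 0.18 ± 0.07 in DU 145 (adjusted p = 0.0184) was lost without the third normoxic vorinostat array (adjusted p = 0.0665). In 22Rv1 the log2 difference was -0.08 ± 0.07 and was not called.

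OGG1 fell by 0.63 ± 0.12 in 22Rv1 (adjusted p = 4.7e-05), where hypoxic arrays went from 7.29, 7.14 and 7.28 to 6.39, 6.32 and 6.71. Its fall of 0.31 ± 0.12 in DU 145 (adjusted p = 0.0255) was lost without any 1 of 4 arrays (adjusted p up to 0.0899). These were the first normoxic or first hypoxic vorinostat array and the second or the third normoxic solvent array. With the mean of its probes the DU 145 call was lost too (adjusted p = 0.0676). The PC-3 value of -0.28 ± 0.12 missed the threshold (adjusted p = 0.0599). MUTYH rose in PC-3 alone, by 0.19 ± 0.06 (adjusted p = 0.00957), a call that was lost with the mean of its probes (adjusted p = 0.289) and with PC-3 fitted alone (adjusted p = 0.0754). MBD4 ranged from -0.16 ± 0.12 in 22Rv1 to 0.19 ± 0.12 in DU 145, and no line was called.

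The scaffold and the polymerase parted by line. XRCC1, which holds LIG3 and POLB at the break, went in DU 145 from 7.20, 7.11 and 7.30 to 7.48, 7.66 and 7.34 in normoxia and from 7.18, 7.09 and 7.10 to 7.62, 7.42 and 7.18 in hypoxia, a rise of 0.28 ± 0.10 (adjusted p = 0.0143). In 22Rv1 it went from 7.56, 7.89 and 7.77 to 7.35, 7.32 and 7.39 and from 7.29, 7.26 and 6.94 to 6.65, 6.69 and 6.37, a fall of 0.49 ± 0.10 (adjusted p = 1.0e-04). The groups were apart in 22Rv1 at both oxygen levels and overlapped in hypoxic DU 145, and the DU 145 call was lost without the first hypoxic vorinostat array (adjusted p = 0.0562). POLB rose by 0.25 ± 0.08 in DU 145 (adjusted p = 0.00719) and fell by 0.22 ± 0.08 in 22Rv1 (adjusted p = 0.0185); the latter was lost without the first hypoxic solvent array or the second normoxic vorinostat array (adjusted p up to 0.0574). PARP1, the sensor of strand breaks and the target of PARP inhibitors, fell by 0.26 ± 0.07 in 22Rv1 (adjusted p = 0.00228), from 12.33, 12.30 and 12.22 to 12.11, 12.08 and 12.08 in normoxia and from 12.22, 12.29 and 12.14 to 11.83, 11.86 and 11.98 in hypoxia. Its smaller fall in DU 145, 0.17 ± 0.07 (adjusted p = 0.0414), was lost without any 1 of 9 of the 12 DU 145 arrays (adjusted p up to 0.107). That call was also lost under cyclic loess (adjusted p = 0.0815) and with every probe tested on its own (0.0518).

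**Figure D2:**
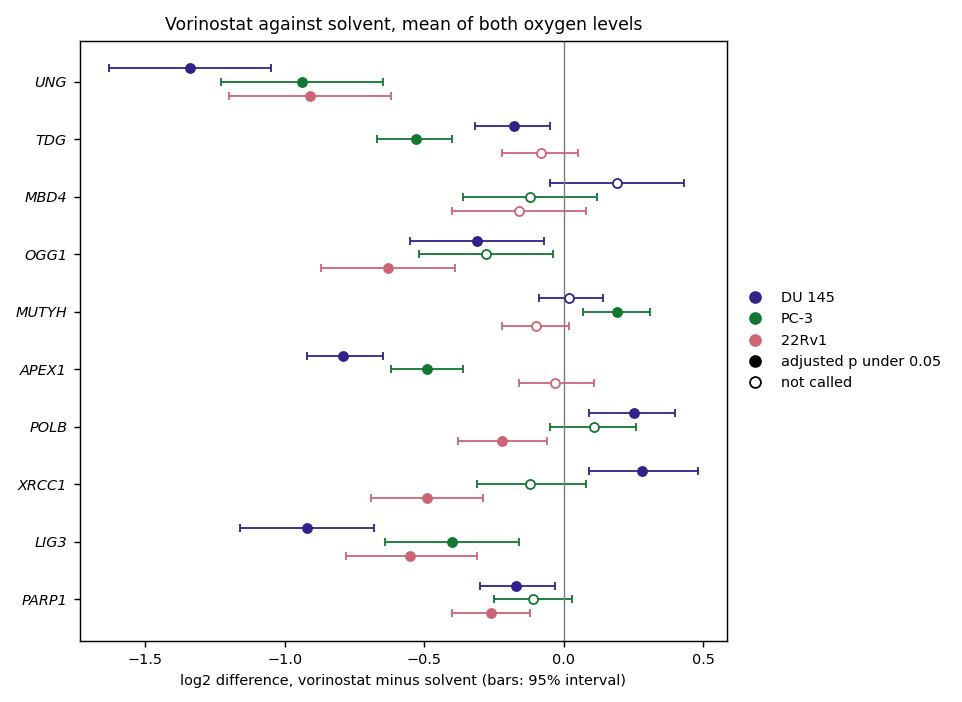
Log2 difference of vorinostat against solvent (horizontal axis, mean of both oxygen levels) for each gene (vertical axis) and cell line, with 95% intervals; filled points are called at an adjusted p under 0.05. UNG and LIG3 lie left of 0 in all 3 lines, and POLB and XRCC1 lie right of 0 in DU 145 and left of it in 22Rv1.

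Taken at 1 oxygen level, with 3 against 3 arrays, 4 members were called in DU 145 at either oxygen level (background 40.7% and 41.3% of genes in normoxia and hypoxia), 4 in PC-3 (25.7% and 28.4%) and 5 in 22Rv1 (31.3% and 33.4%). Higher calls made up 22.2% and 22.1% of genes in DU 145, 12.3% and 14.5% in PC-3 and 16.4% and 16.5% in 22Rv1, and lower calls 18.6% and 19.2%, 13.4% and 13.8%, and 14.9% and 16.9%. Drug and solvent groups did not overlap for 7 and 7 members in DU 145 (47.2% and 49.8% of all genes), 5 and 6 in PC-3 (33.1% and 35.8%) and 7 and 7 in 22Rv1 (53.3% and 49.9%). The count in normoxic 22Rv1 went from 5 to 3 without the first vorinostat array, 1 without the second, and 2 without the second or the third solvent array. UNG was called lower in all 6 comparisons. In DU 145 the UNG fall was the same to the second decimal in normoxia and hypoxia, 1.34 ± 0.20 each. The change of the drug effect from normoxia to hypoxia was called for 0 of 10 members in each line by limma, with 0, 1 and 0 members at an unadjusted p under 0.05 in DU 145, PC-3 and 22Rv1 (the 1 was XRCC1 in PC-3, 0.43 ± 0.19, adjusted p = 0.551). Of all genes, 0.728%, 0.0566% and 0.728% were called, with 0.21%, 0.00809% and 0.146% higher and 0.518%, 0.0485% and 0.583% lower. The interval for UNG in DU 145 ran from -0.58 to 0.57, and differences within it were not detectable with 3 arrays a group.

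The difference of the drug effect between lines was tested directly. It was called for 4 members between DU 145 and PC-3 (31% of all genes), 3 between DU 145 and 22Rv1 (39.4%) and 5 between PC-3 and 22Rv1 (28.2%), in comparisons that share the arrays of a line. In these, 17.7%, 21.2% and 13.5% of all genes were called higher and 13.3%, 18.2% and 14.7% lower. APEX1 was called in all 3: the drug effect in DU 145 minus that in PC-3 was -0.30 ± 0.09 (adjusted p = 0.0129), and against 22Rv1 it was -0.76 ± 0.09 (adjusted p = 8.5e-08). XRCC1 was called in all 3 as well, with the widest gap between DU 145 and 22Rv1 (0.77 ± 0.14, adjusted p = 3.6e-05). LIG3 fell further in DU 145 than in PC-3, with a difference of -0.52 ± 0.16 (adjusted p = 0.015). In PC-3 its main probe lay close to background, with hypoxic means of 5.75 with solvent and 5.54 with vorinostat. The lowest detectable signal of the hypoxic PC-3 vorinostat arrays averaged 5.37, so a deeper fall there could hardly be read. UNG was not called in any of the 3 comparisons in the main fit. Its gap between DU 145 and 22Rv1 was -0.43 ± 0.20 (95% interval -0.84 to -0.02, adjusted p = 0.0879), which was called with array weights (adjusted p = 0.0299). With a replicate block in the limma fit, the UNG effect in DU 145 was called different from 22Rv1 (adjusted p = 0.00453) and from PC-3 (0.0101). Without the second normoxic or the second hypoxic vorinostat array of DU 145, UNG was called against 22Rv1 (adjusted p = 0.0282 and 0.0183) and against PC-3 (0.0469 and 0.0314).

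UNG carries 3 probes, so its fall could be read more than once. The main UNG probe (ILMN_1683120) and a dimmer one (ILMN_1722769, above background on 26 of 36 arrays) are both annotated to NM_003362, the mitochondrial form, and the third (ILMN_1735719, 17 of 36 arrays) to NM_080911, the nuclear form; the annotation does not place the probes within the transcripts. With solvent in normoxia the third probe stood at 5.94, 6.52 and 6.11 in DU 145, 6.03, 5.47 and 6.21 in PC-3 and 6.65, 7.08 and 6.80 in 22Rv1, above background on all 9 arrays. With vorinostat it was above background on 0 of 6 arrays in DU 145, 0 of 6 in PC-3 and 1 of 6 in 22Rv1, so these values are bounds. Its signal was at least 1.77-fold lower with the drug in normoxic DU 145 (adjusted p = 2.9e-08), at least 1.59-fold lower in normoxic PC-3 (adjusted p = 2.1e-06) and at least 1.42-fold lower in hypoxic 22Rv1 (adjusted p = 2.8e-06), where the bound sets the lowest detectable signal of each drug array in place of the probe's own. In hypoxic DU 145 the bound was at least 1.08-fold (adjusted p = 5.0e-04), and in hypoxic PC-3, where 1 of 3 solvent arrays was above background, there was none. The adjusted p-values beside these bounds are from limma on the measured values, those below background included. They do not test the bounds. The dimmer NM_003362 probe differed by -0.49 ± 0.20 in DU 145 (adjusted p = 0.0419), where it was above background on 9 of 12 arrays, and was not called in 22Rv1 (0.03 ± 0.20, all 12 arrays above background). In PC-3 it was above background on 5 of 12 arrays, and its value there (-0.07 ± 0.20) does not show whether it fell. Probe tests were adjusted over all 21376 probes above background.

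**Figure D3:**
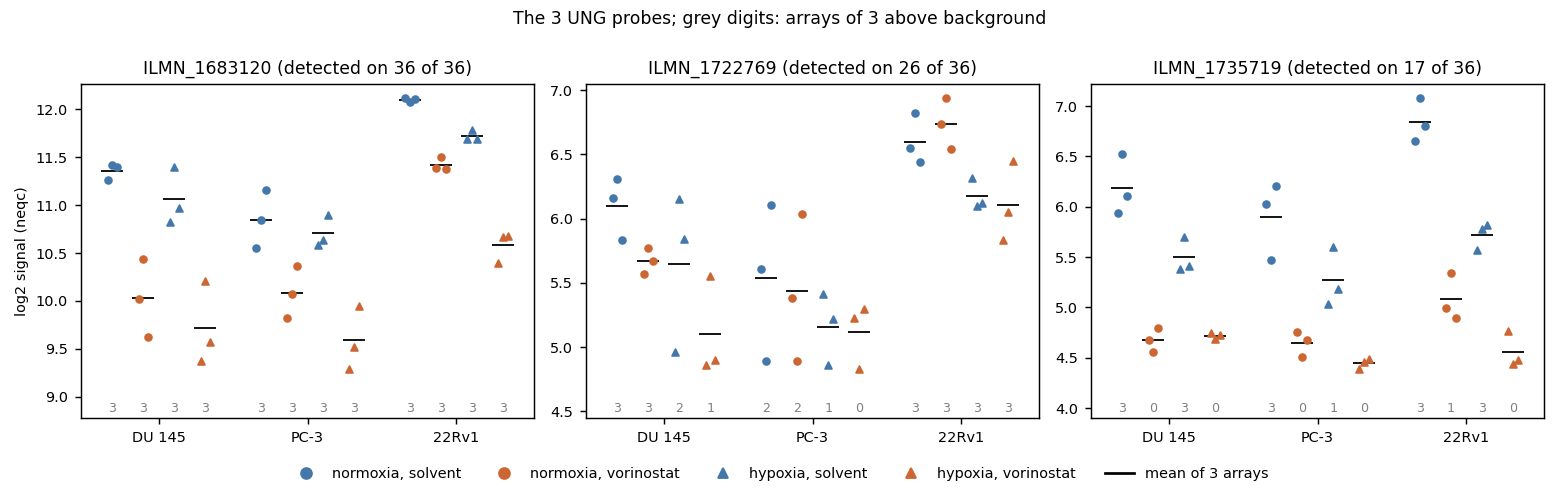
Log2 signal (vertical axis) of the 3 UNG probes by cell line (horizontal axis), with 1 point per array, a bar at the mean of 3 arrays, and grey digits for the number of arrays of 3 on which the probe was above background. With vorinostat the third probe is above background only on 1 of 3 normoxic 22Rv1 arrays. In hypoxic PC-3 it is above background on 1 of 3 solvent arrays. The second probe is not called for vorinostat outside DU 145.

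The second probes of APEX1 and TDG gave the same calls for vorinostat as the main ones. APEX1 ILMN_2319344 differed by -0.93 ± 0.08, -0.38 ± 0.08 and -0.05 ± 0.08 in DU 145, PC-3 and 22Rv1, and TDG ILMN_1782331 by -0.25 ± 0.09, -0.55 ± 0.09 and -0.08 ± 0.09. The second LIG3 probe (ILMN_2373335, NM_002311, above background on 36 arrays but dim) fell in DU 145 (-0.41 ± 0.12, adjusted p = 0.00496) and was not called in PC-3 (0.04 ± 0.12) or 22Rv1 (-0.12 ± 0.12). Another LIG3 probe (ILMN_1694582) was above background on no array. The second OGG1 probe differed by -0.61 ± 0.17 in 22Rv1 (adjusted p = 0.00424), but was above background on 0 of 3 hypoxic vorinostat arrays there. In hypoxia it was therefore at least 1.34-fold lower and was not called in the limma test of its measured values (adjusted p = 0.0851). It was not called in DU 145 or PC-3. The 2 further MUTYH probes were above background on 14 and 13 arrays.

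Hypoxia without the drug lowered 4 of 10 members in DU 145, 4 in PC-3 and 3 in 22Rv1 and raised none; 6.91%, 9.53% and 10.3% of all genes were called lower, and 14.7%, 16.9% and 20.2% were called in either direction (7.84%, 7.35% and 9.89% higher). These comparisons use the solvent arrays that the drug comparisons also use. OGG1 and MUTYH, the pair of glycosylases that deal with oxidised guanine, fell in all 3 lines, as did 256 of 12360 genes (2.07%). The hypoxic and normoxic groups did not overlap for 5, 6 and 7 members in DU 145, PC-3 and 22Rv1, against 29.1%, 27.9% and 45% of all genes.

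MUTYH went from 7.85, 7.92 and 8.05 in normoxia to 7.59, 7.62 and 7.62 in hypoxia in DU 145, from 7.39, 7.17 and 7.39 to 6.69, 6.68 and 6.67 in PC-3, and from 9.19, 9.28 and 9.15 to 8.77, 8.61 and 8.70 in 22Rv1. The groups were apart in each line, and the fall was 0.33 ± 0.08 (adjusted p = 0.00537), 0.64 ± 0.08 (adjusted p = 1.8e-06) and 0.51 ± 0.08 (adjusted p = 2.6e-05). With the mean of its 3 probes the call was lost in DU 145 (adjusted p = 0.245) and PC-3 (adjusted p = 0.0842), where the 2 further probes lay near background. OGG1 went from 7.75, 8.33 and 8.13 to 7.56, 7.43 and 7.56 in DU 145, from 8.48, 8.12 and 8.38 to 7.61, 7.83 and 7.87 in PC-3, and from 7.90, 8.08 and 7.99 to 7.29, 7.14 and 7.28 in 22Rv1. Its fall was 0.55 ± 0.17 in DU 145 (adjusted p = 0.0225), 0.55 ± 0.17 in PC-3 (adjusted p = 0.0198) and 0.75 ± 0.17 in 22Rv1 (adjusted p = 0.00139). The DU 145 call was lost without normoxic solvent array 2 or 3 or hypoxic solvent array 2 (adjusted p up to 0.148), and the PC-3 call without normoxic array 1 or 3 or hypoxic array 1 (adjusted p up to 0.0982). Both were also lost with the mean of its probes (adjusted p = 0.0956 and 0.144), and the second OGG1 probe fell in 22Rv1 alone (-0.82 ± 0.24, adjusted p = 0.0157).

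LIG3 fell in hypoxia in DU 145, by 0.79 ± 0.16 (adjusted p = 0.00108), and in PC-3, by 0.67 ± 0.16 (adjusted p = 0.00452), the latter lost without the third normoxic solvent array (adjusted p = 0.0641), with the mean of its probes (0.158) and with PC-3 fitted alone (0.0721). Without that array the count of members called in PC-3 went from 4 to 2. The second LIG3 probe was called in no line (-0.14, 0.08 and -0.17). In 22Rv1 the main LIG3 probe went from 7.31, 7.25 and 7.22 to 6.99, 6.89 and 6.63 without overlap, a difference of -0.42 ± 0.16 that missed the threshold (adjusted p = 0.0668). XRCC1 fell by 0.56 ± 0.14 in PC-3 (adjusted p = 0.00434) and by 0.58 ± 0.14 in 22Rv1 (adjusted p = 0.00269), and stood at -0.08 ± 0.14 in DU 145. APEX1 fell in DU 145 by 0.37 ± 0.09 (adjusted p = 0.00565), which was lost with DU 145 fitted alone (0.0567), and its second probe fell in all 3 lines (-0.38, -0.36 and -0.35, each ± 0.11). Differences of the hypoxia effect between lines were not tested.

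The UNG main probe was not called in hypoxia in any line (-0.30 ± 0.20, -0.14 ± 0.20 and -0.38 ± 0.20). Its NM_080911 probe fell, by 0.69 ± 0.17 in DU 145 (adjusted p = 0.00559) and by 1.12 ± 0.17 in 22Rv1 (adjusted p = 1.4e-05), where it was above background on all 3 hypoxic arrays of each line. In PC-3 it was above background on 1 of 3 hypoxic arrays, and its difference of -0.63 ± 0.17 (adjusted p = 0.0106) is partly read from background. PARP1 varied least in hypoxia, with differences of 0.02, -0.01 and -0.06 and 95% intervals within -0.26 and 0.22. TDG, POLB and MBD4 were called in no line either.

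**Figure D4:**
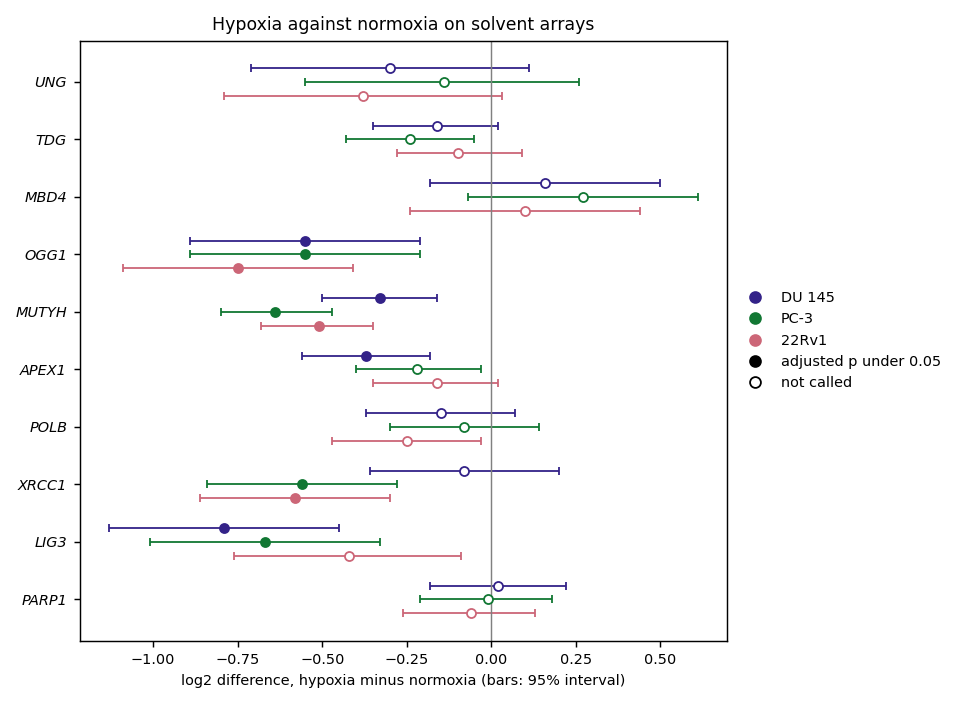
Log2 difference of hypoxia against normoxia on solvent arrays (horizontal axis) for each gene (vertical axis) and cell line, with 95% intervals; filled points are called at an adjusted p under 0.05. OGG1 and MUTYH lie left of 0 in all 3 lines and PARP1 lies close to 0.

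Of 28 other genes of the pathway, 27 were tested. Vorinostat raised 4 and lowered 12 of them in DU 145, raised 4 and lowered 10 in PC-3, and raised 5 and lowered 14 in 22Rv1, with medians of -0.21, -0.15 and -0.27. In either direction 59.3%, 51.9% and 70.4% of the 27 were called, against 52.6%, 39.5% and 45.3% of all genes. Of all genes, 27.9%, 19.8% and 22.9% were called higher and 24.7%, 19.7% and 22.4% lower. By role, 6, 6 and 8 of the 10 genes of gap filling, flap removal and ligation fell and 1, 1 and 1 rose. Of the 6 of nick signalling, 4, 3 and 3 fell and 1, 0 and 0 rose. Of the 6 other glycosylases, 2, 1 and 2 fell and 1, 2 and 2 rose. Of the 5 genes of end processing, 0, 0 and 1 fell and 1, 1 and 2 rose. LIG1, the ligase of replication and long-patch repair, fell by 0.83 ± 0.10 in DU 145, 0.57 ± 0.10 in PC-3 and 1.73 ± 0.10 in 22Rv1. POLD4, a small subunit of DNA polymerase delta, went the other way, up by 0.96, 1.08 and 1.37. NEIL3, a glycosylase for oxidised bases, differed by -1.12 in DU 145, -0.15 in PC-3 (not called) and -1.18 in 22Rv1, and NEIL2, of the same family, by -0.91, -0.48 and 0.26, all called. SMUG1, another uracil glycosylase, rose by 0.76 ± 0.07 in DU 145, 0.34 ± 0.07 in PC-3 and 0.49 ± 0.07 in 22Rv1, opposite to UNG. CHD1L, a chromatin remodeller activated by poly(ADP-ribose), fell by 0.33, 0.67 and 0.40 (each ± 0.11) in DU 145, PC-3 and 22Rv1. NTHL1, a glycosylase for oxidised pyrimidines, rose by 0.35 ± 0.08 in PC-3, fell by 0.47 ± 0.08 in 22Rv1 and stood at -0.04 ± 0.08 in DU 145. TDP1, which cleans blocked 3′ ends, rose by 0.66 ± 0.25 in 22Rv1 and stood at 0.23 and 0.18 in DU 145 and PC-3, not called. In hypoxia, 0, 0 and 1 of the 27 rose and 4, 4 and 4 fell. Of all genes, 7.84%, 7.35% and 9.89% were called higher there and 6.91%, 9.53% and 10.3% lower.

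S phase genes moved on the same arrays: of 15 tested, vorinostat lowered 11 in DU 145, 11 in PC-3 and 14 in 22Rv1 (1, 0 and 0 rose), with medians of -0.65, -0.37 and -1.51. In hypoxia, 0, 2 and 8 fell. The shares of all genes called lower were 24.7%, 19.7% and 22.4% for vorinostat and 6.91%, 9.53% and 10.3% for hypoxia. Their part in the falls of the members was not tested. As a description over 36 arrays with the mean of each line taken out, which share drug and oxygen groups, Pearson's r with the mean of these genes was 0.78 for PARP1, 0.77 for UNG, 0.73 for OGG1, 0.61 for LIG3 and XRCC1, 0.46 for APEX1 and TDG, 0.37 for MUTYH, 0.20 for POLB and -0.11 for MBD4. The drug effect on 14 of the 15 S phase genes was called lower in 22Rv1 than in DU 145, as was that on 21.2% of all genes. Of the members, that on POLB and XRCC1 was called lower in 22Rv1 too and that on APEX1 lower in DU 145, and the other 7 were not called between these lines. In 22Rv1 the fall of 9 of the 15 was called deeper in hypoxia than in normoxia, against 0 of 10 members. Of all genes, 0.583% were called lower in this test, so 0 of 10 is close to the background.

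**Figure D5:**
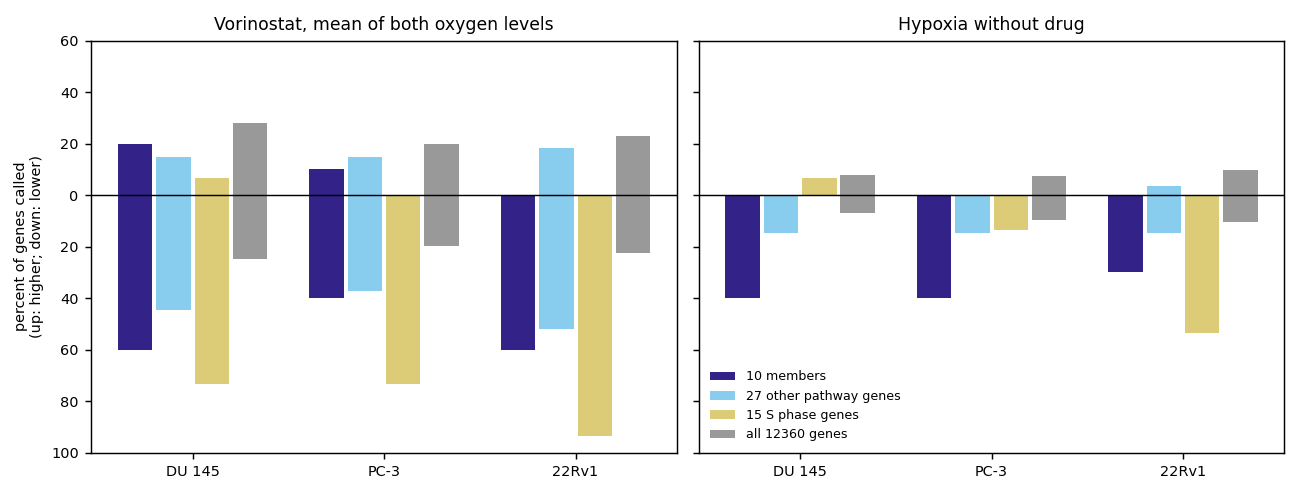
Percent of genes called higher (above 0) and lower (below 0) for vorinostat (left) and hypoxia (right) by cell line (horizontal axis), for the 10 members, 27 other pathway genes, 15 S phase genes and all 12360 genes tested. In hypoxia 4, 4 and 3 of the 10 members are called lower in DU 145, PC-3 and 22Rv1 and none higher.

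The members also varied with each other. On the same 36 arrays, UNG and APEX1 had the highest r (0.84), followed by APEX1 and LIG3 (0.80) and UNG and LIG3 (0.79), and MBD4 and MUTYH the lowest (-0.37). POLB and PARP1 ran opposite in DU 145 (-0.80, 12 arrays) and PC-3 (-0.61) and together in 22Rv1 (0.65). Among all genes, those most like UNG were SLC19A1 (0.95), the reduced folate carrier, CTPS1 (0.94), which makes CTP, and ENTR1 (0.94). Those most like APEX1 were SLC25A13 (0.94), PEF1 (0.93) and DDRGK1 (0.93), and those most like LIG3 were SFXN4 (0.91), SLC25A22 (0.91) and WDR4 (0.89). MBD4 and POLB had the least close neighbours among the members, at 0.79 (HYPK) and 0.78 (EMC6).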

How the data were processed

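RNA from DU 145, PC-3 and 22Rv1 cells was measured on 36 single-colour bead arrays, 3 per group as labelled. The labels do not say whether replicates were separate cultures, so p-values measure the spread between these arrays, which may be technical. Per the file headers, the deposited values are a mean bead intensity and a detection p-value per probe, and BeadStudio 3.1.3.0 is named in the submitters' processing notes. The authors' deposited processed intensity table was an alternative. Here signals were background corrected and quantile normalized with neqc (limma 3.58.1, R 4.3.3, offset 16) on the log2 scale. Probes needed a detection p under 0.01 on at least 3 of 36 arrays (21376 of 47323), and each gene was read from its probe of highest mean (12360 genes). A model with 12 group means was tested with lmFit and eBayes, adjusted by Benjamini-Hochberg over all genes, after tests on simulated data. The number of arrays limits the precision. Members and lists were chosen with earlier results of these data known. All members were named, of the other pathway genes the 2 largest called rises and falls per line for vorinostat (then given for other lines too), and as most alike the 3 genes of highest r, shown for some members. Alternatives were other normalizations, offsets, filters, probe rules, array weights, arrays in the fit, a replicate block and each array left out. GINS1, CCNE2 and CA9 were not analysed here, and some listed genes are not reported here.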

Additional observations from a re-analysis of the deposited data

Results flagged for a closer look

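The following results were picked out because the effect of vorinostat differed between 2 cell lines by a direct test (limma, difference of the 2 drug effects, each the mean of both oxygen levels, adjusted over all 12360 genes). Values are log2 drug effect in the first line minus that in the second. Between DU 145 and PC-3 the difference was -0.30 for APEX1 (adjusted p = 0.0129), -0.52 for LIG3 (adjusted p = 0.015), 0.35 for TDG (adjusted p = 0.00409) and 0.40 for XRCC1 (adjusted p = 0.0256). The falls of APEX1 and LIG3 were deeper in DU 145, that of TDG was deeper in PC-3, and XRCC1 rose in DU 145 and was not called in PC-3. The LIG3 signal in hypoxic PC-3 lay close to background, which limits how deep a fall can be read there. The XRCC1 difference was lost without any 1 of 4 arrays (hypoxic vorinostat 1 or normoxic vorinostat 2 of DU 145, normoxic solvent 3 or hypoxic vorinostat 3 of PC-3; adjusted p up to 0.0613). Between DU 145 and 22Rv1 it was -0.76 for APEX1 (adjusted p = 8.5e-08), 0.47 for POLB (adjusted p = 8.6e-04) and 0.77 for XRCC1 (adjusted p = 3.6e-05). Between PC-3 and 22Rv1 it was -0.46 for APEX1 (adjusted p = 2.5e-04), -0.45 for TDG (adjusted p = 3.7e-04), 0.29 for MUTYH (adjusted p = 0.00742), 0.33 for POLB (adjusted p = 0.0222) and 0.37 for XRCC1 (adjusted p = 0.0397). The last of these was lost without any 1 of 13 of the 24 arrays (adjusted p up to 0.0846) and under 5 other settings (up to 0.0861), that of POLB without the first normoxic vorinostat array of PC-3 (adjusted p = 0.0509), and that of MUTYH with the mean of its probes (adjusted p = 0.0673). The cause of these differences was not tested.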

How the results depend on the processing

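Of 88 called values of single members, 26 lost their call under at least 1 alternative, 19 of them under one other than leaving out an array, and 0 reversed. Of 122 values not called, 27 gained a call and 31 turned sign. Over 21 counts of called members and 1008 recomputations, 990 stayed within 1.5 times the count. The count for vorinostat in PC-3 was 3 with the mean of a gene's probes and 3 with only the lines compared, against 5. Vorinostat in normoxic 22Rv1 gave 3 with median scaling, against 5, and 1 to 5 without 1 array. Hypoxia in PC-3 gave 2 with the mean of probes and 2 with only the lines compared, against 4, and 2 to 5 without 1 array. Hypoxia in 22Rv1 gave 5 with the mean of probes, 6 with array weights and 6 with only the lines compared, against 3, and 3 to 4 without 1 array. The drug effect in DU 145 minus that in 22Rv1 gave 6 with array weights and 5 with the replicate block, against 3, and 3 to 5 without 1 array; PC-3 minus 22Rv1 gave 3 to 5 against 5. Single arrays that moved a count by over 1.5 times were the third normoxic solvent array for hypoxia in PC-3 (2), normoxic vorinostat arrays 1 (3) and 2 (1) and solvent arrays 2 and 3 (2 each) for normoxic 22Rv1, the second hypoxic vorinostat array of DU 145 and the first of 22Rv1 for their difference (5 each), and the first normoxic vorinostat array of PC-3 for PC-3 minus 22Rv1 (3). The causes were not tested. Without 1 array the other counts ranged from 6 to 8 (vorinostat in DU 145), 5 to 6 (PC-3) and 5 to 6 (22Rv1), from 3 to 5 at 1 oxygen level in DU 145 and PC-3, at 5 in hypoxic 22Rv1, from 3 to 4 for hypoxia in DU 145, at 0 for the oxygen interactions, from 3 to 6 for DU 145 minus PC-3, and from 5 to 6, 7 to 7 and 7 to 8 for the lines. Median scaling moved the median of all genes to at most 0.11. The labels do not say what a replicate number marks. With each group's mean taken out, arrays of a line from different groups were compared. Same-numbered ones correlated above 0.1 in 12, 16 and 2 of 18 pairs (DU 145, PC-3, 22Rv1). Their median r was 0.16, 0.29 and 0.053, against -0.089, -0.15 and -0.022 for different numbers. In the same comparison, 11, 12 and 11 of 12 arrays correlated best with their own number, so arrays of the same number shared structure. The main fit did not take the numbers as pairs, and a replicate block was run as an alternative. With the replicate block the UNG drug effect was called different in DU 145 from PC-3 (adjusted p = 0.0101) and from 22Rv1 (adjusted p = 0.00453). The random replicate block had a correlation of 0.143. A chip block was not run, since the file headers give no chip. Probes near background, as the third UNG probe and 2 MUTYH probes, give bounds at best.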
